A study of Schizosaccharomyces pombe with 6 samples.

Results

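Replication factor C loads the sliding clamp PCNA onto DNA for replication, and rfc4 and rfc3 encode 2 of its small subunits. Both genes lie on the arms of chromosome I in the fission yeast Schizosaccharomyces pombe, outside its constitutive heterochromatin, and both carried a narrow patch of H3K9me2 in cells without Pds5. The genes were chosen by the measured H3K9me2 difference between pds5D and wild type, so those values are a description and carry no test. They were followed through 4 tiles inside rfc4 (906000 to 906900) and 5 tiles inside rfc3 (4029900 to 4031100), which is 9 of 41251 tiles, and through the tiles within 10 kb on each side, 66 around rfc4 and 62 around rfc3. A tile is a probe site every 300 bp, named here by the position in its identifier. Which genome build those positions refer to is stated in none of the labels or headers.

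The study hybridised 6 arrays of chromatin immunoprecipitation (ChIP), each setting Cy5-labelled precipitated DNA against Cy3-labelled whole-cell extract DNA of the same genotype. H3K9me2 was precipitated from pds5D cells (1 array, deletion of pds5) and from wild-type cells (1 array). Pds5-GFP was precipitated through its tag from swi6D cells (1 array, deletion of swi6), clr4D cells (1 array, deletion of clr4) and wild-type cells (2 arrays). Cells grew in logarithmic phase at 30 °C in rich medium (YEA) and were fixed in 3% paraformaldehyde. Cells for the Pds5-GFP arrays spent 2 h at 18 °C before fixation, and their fixative also held DMA. DNA was sheared to between 500 and 1000 bp, so neighbouring tiles share fragments and are not replicates. Each mutant is represented by 1 array, and whether the 2 wild-type arrays stem from separate cultures is not labelled, so p-values measure only the spread between these 2 arrays, which may be technical.

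Dimethylation of histone H3 at lysine 9 marks heterochromatin in fission yeast, which is concentrated at centromeres, telomeres and the mating-type region. Clr4 is the enzyme that places the mark, and Swi6, a homologue of heterochromatin protein HP1, binds it. Pds5 associates with cohesin, the ring that holds sister chromatids together, and regulates its stay on chromatin. Small patches of H3K9me2 are also known at some euchromatic genes, among them meiotic genes whose transcripts are bound by Mmi1 through copies of a short motif.

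In the RefSeq reference (assembly ASM294v3), to which tiles were matched through base composition, rfc4 (SPAC1687.03C) lies on the minus strand at chrI:905077-906395, spans 1319 bp and has 3 exons. rfc3 (SPAC27E2.10C) lies on the minus strand at chrI:4034145-4035832, spans 1688 bp and has 6 exons. Of rfc4, 1271 bp (96.4%) overlap rce1 on the plus strand, the gene of a CAAX prenyl protease. Precipitated DNA carries no strand, so the tiles of rfc4 cannot be told apart from those of rce1. Of rfc3, 193 bp (11.4%) overlap the 3' end of mak2 on the plus strand, which encodes a histidine kinase. No stretch of 25 bases from either gene with 600 bp on each side (2495 positions for rfc4 and 2864 for rfc3) occurs elsewhere in the reference. The longest run of bases that the 2 genes share is 12. Their GC content was 38.1% for rfc4 and 35.1% for rfc3, beside a median of 36.8% over all genes.

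Because both patches reach the 5' ends of the genes, the 300 bases upstream of each annotated start are shown, read on the coding strand at chrI:906396-906695 for rfc4 and chrI:4035833-4036132 for rfc3. Capitals mark TATAAA.
rfc4 upstream: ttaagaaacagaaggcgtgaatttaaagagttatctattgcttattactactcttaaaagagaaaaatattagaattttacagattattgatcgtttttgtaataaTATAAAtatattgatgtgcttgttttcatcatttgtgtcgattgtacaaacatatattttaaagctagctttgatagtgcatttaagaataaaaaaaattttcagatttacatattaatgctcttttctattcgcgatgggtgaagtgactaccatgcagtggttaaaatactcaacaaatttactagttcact
rfc3 upstream: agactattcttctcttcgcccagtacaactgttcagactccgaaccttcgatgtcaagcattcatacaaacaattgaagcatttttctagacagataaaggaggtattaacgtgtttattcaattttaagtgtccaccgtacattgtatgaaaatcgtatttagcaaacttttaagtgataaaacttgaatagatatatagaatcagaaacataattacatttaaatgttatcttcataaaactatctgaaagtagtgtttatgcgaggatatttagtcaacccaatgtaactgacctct
TATAAA, searched on both strands, was found 1 time upstream of rfc4 and 0 times upstream of rfc3; 51.2% of the 300-base windows upstream of all 5112 genes hold it. The MCB motif ACGCGT, known from genes of the G1/S transition, was found 0 times in both windows and is held by 2.90% of all windows.

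TTAAAC, a form of the motif that Mmi1 binds in RNA, was searched on the coding strand of each gene. It was found 0 times in rfc4 and 3 times in rfc3, where 4.43% of 1579 genes of similar length hold at least as many. Sites 1 and 2 lie in introns and site 3 in the untranslated part of the last exon, with TTAAAC in capitals.
rfc3 site 1: aagccattttTTAAACaaagtgtgga
rfc3 site 2: aagtcattcaTTAAACtcttcttcac
rfc3 site 3: atttagaaacTTAAACaatataaatt
They start 755, 1268 and 1658 bases from the annotated transcript start. Such a match describes the letters only.

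Values below are log2 ratios of ChIP over extract, each array centred on its own median, so 0 is the typical tile. Over all 6 arrays between 98.4% and 99.98% of tiles were above background in both channels and 0 were saturated. The extract channel bears out the labels: its median over the tiles of the deleted gene was -6.95 for pds5 in the pds5D array, -6.85 for swi6 in the swi6D array and -6.55 for clr4 in the clr4D array, against -1.13 to 0.44 for these genes in arrays where they were intact. The H3K9me2 arrays differed in spread, with a median absolute deviation of 0.667 in pds5D and 0.531 in wild type, and 111 spots in pds5D and 1306 in wild type were flagged as outliers and left out.

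At rfc4, H3K9me2 stood at 2.26, 3.14, 3.69 and 3.99 on the 4 tiles in pds5D, against 0.32, 0.29, 0.24 and 0.11 in wild type. Every tile of the gene was high in pds5D and near the array median in wild type. The tile values of the 2 arrays did not overlap, but the gene was chosen for this difference. The gene mean was 3.27 in pds5D and 0.24 in wild type, a difference of 3.03 (SD over 4 tiles 0.84, which is not a replicate error), or 8.16-fold. The mark increased along the gene towards its 5' end in pds5D.

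At rfc3, H3K9me2 stood at 1.93, 2.40, 2.71, 2.76 and 3.52 on the 5 tiles in pds5D, against -0.38, -0.14, -0.68, -0.49 and 0.97 in wild type. Here too the arrays did not overlap, at a gene chosen in the same way. The highest tile of each array was the same one, at the 5' end of the gene. The gene mean was 2.66 in pds5D and -0.14 in wild type, a difference of 2.80 (SD over 5 tiles 0.48), or 6.99-fold. The tile at 0.97 in wild type had the lowest extract signal of the gene, -1.88 in pds5D and -2.40 in wild type.

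Over all 4580 measured genes the median difference was -0.01, and the central 95% lay between -0.60 and 0.92. The rfc4 difference was the 2nd largest and that of rfc3 the 4th largest of the 4580. A size rule, a difference of at least 1 with the higher array at 1 or more, was met by 92 genes with more H3K9me2 in pds5D (2.01%) and 11 with less (0.24%). Both genes entered through this contrast, so nothing is read from their standing.

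**Figure D1:**
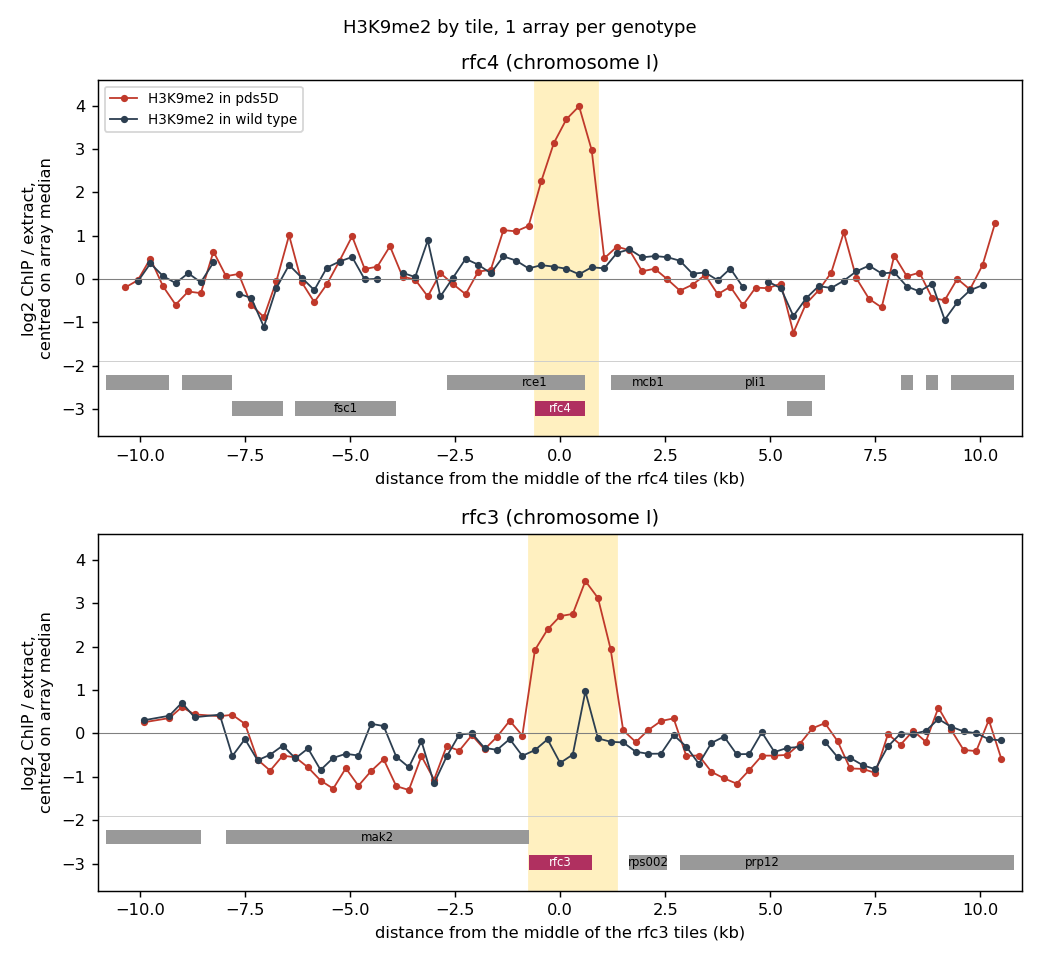
Centred log2 ratio of H3K9me2 ChIP over extract for each tile (points) against the distance in kb from the middle of the rfc4 tiles (upper panel) and of the rfc3 tiles (lower panel), in pds5D (red) and wild type (dark blue), 1 array each. Shading marks the gained patch, and bars mark the tiles of plus-strand genes (upper row) and minus-strand genes (lower row); pds5D reaches 3.99 in rfc4 and 3.52 in rfc3 while wild type stays below 1 across both windows.

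The 2 channels were read separately because a ratio can move through either. At rfc4 the ChIP channel averaged 3.59 in pds5D and 1.07 in wild type, a difference of 2.52. The extract channel averaged 0.34 in pds5D and 0.85 in wild type, a difference of -0.51 that was negative on all 4 tiles (-1.01 to -0.26). Most of the rfc4 difference therefore stood in the ChIP channel, and 0.51 of it in the extract. Single flanking tiles differed as much in the extract in both directions, as at 900000 (-0.98), 916200 (-0.90), 904200 (0.95) and 903000 (0.80). At rfc3 the ChIP channel averaged 2.03 in pds5D and -0.90 in wild type, a difference of 2.93. The extract channel there averaged -0.62 in pds5D and -0.74 in wild type, a difference of 0.12 (-0.10 to 0.51 by tile), so the ChIP channel alone gave a larger difference than the ratio.

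**Figure D2:**
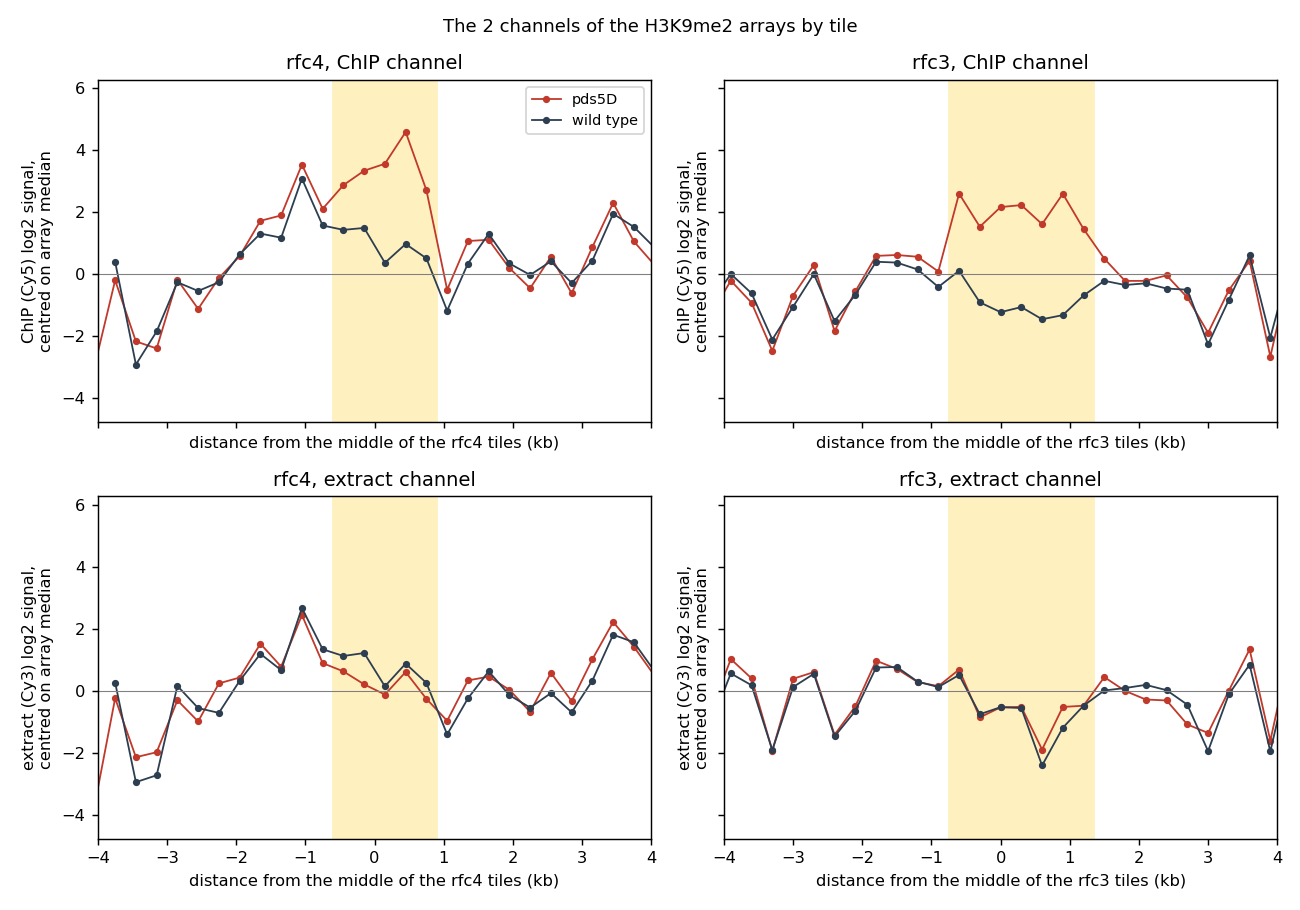
Centred log2 signal of the ChIP channel (upper row) and the extract channel (lower row) of the H3K9me2 arrays by tile within 4 kb of the middle of rfc4 (left) and rfc3 (right), for pds5D (red) and wild type (dark blue). Inside the shaded patches the ChIP traces part, with means over the gene of 3.59 in pds5D and 1.07 in wild type at rfc4 and of 2.03 in pds5D and -0.90 in wild type at rfc3, while the extract traces stay within about 1 of each other.

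A gained patch was taken as a run of tiles where the running median over 3 tiles of the difference was at least 1. At rfc4 the patch held 5 tiles, 906000 to 907200, a width of 1.5 kb. On its 3' side it tapered. Tiles 905100, 905400 and 905700 stood at 1.13, 1.10 and 1.23 in pds5D, against 0.52, 0.43 and 0.25 in wild type, and the difference was 0.98 on the last tile outside and 1.94 on the first inside, a step of 0.95. On its 5' side it ended abruptly: tile 907200 stood at 2.98 in pds5D and 0.27 in wild type, and tile 907500 at 0.48 in pds5D and 0.25 in wild type, a step in the difference of 2.47.

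At rfc3 the patch held 7 tiles, 4029900 to 4031700, a width of 2.1 kb, and both of its edges were steep. On the 3' side tile 4029600 stood at -0.05 in pds5D and -0.52 in wild type, next to 1.93 in pds5D and -0.38 in wild type on the first tile inside, a step in the difference of 1.84. On the 5' side tiles 4031400 and 4031700 stood at 3.13 and 1.95 in pds5D, against -0.11 and -0.19 in wild type. Tile 4032000 beyond them stood at 0.07 in pds5D and -0.21 in wild type, a step of 1.86. Over the arms, 0.922% of 35369 steps between neighbouring tiles reached 1.5 in size, and the median step was 0.28. Edges are placed where the difference crosses a threshold, so this share is background and no test of them.

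Laid on the reference, both patches began inside the 3' part of the gene and ended beyond its 5' end. The first tile lay 173 bp inside the lower end of rfc4 and 255 bp inside that of rfc3. The last tile lay 55 bp past the upper end of rfc4 and 368 bp past that of rfc3, so the rfc3 patch took in the upstream sequence printed above. The match to the reference was read on a grid of 50 bp, and its best local fit differed by one or more grid steps (for rfc4, a shift of -650 bp in place of -750 bp), so these distances are approximate.

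Outside the patches the differences were small on balance. Over 60 tiles around rfc4 measured on both arrays the difference had a median of -0.06 and an SD of 0.45 (-1.29 to 1.12), and 1 tile reached 1. Over 59 tiles around rfc3 the median was -0.08 and the SD 0.42 (-1.09 to 0.95), and 0 tiles reached 1. Neighbouring tiles could share a sign there, as in tiles 4025100 to 4026900, which lay between -1.09 and -0.33. Over the whole array 3.88% of 39903 tiles reached 1.

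Of the neighbouring genes with at least 3 tiles, 1 of 9 around rfc4 met the size rule and 0 of 6 around rfc3 did. Among all genes the shares were 2.01% higher and 0.24% lower. The gene around rfc4 was rce1, with 2.09 in pds5D and 0.29 in wild type. Of its 8 tiles, 4 are the tiles of rfc4. mcb1, upstream of rfc4 and encoding a protein bound to the MCM helicase, stood at 0.26 in pds5D and 0.54 in wild type. rpc19, a subunit shared by RNA polymerases I and III, stood at -0.10 in pds5D and 0.28 in wild type. The others around rfc4 (tfg3, SPAC22H12.03, rps102, fsc1, pli1 and irs4) had differences between -0.20 and 0.17, while rpl44, SPAC1687.07 and SPAC1687.08 had too few tiles.

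Around rfc3, mak2 stood at -0.56 in pds5D and -0.40 in wild type, although its 3' end meets rfc3. rps002, a ribosomal protein gene upstream of rfc3, stood at 0.06 in pds5D and -0.45 in wild type, a difference of 0.51. prp12, cut20, pms1 and the Tf2-6 retrotransposon differed by between -0.17 and -0.0048. The tiles of Tf2-6 share sequence with other copies of the element.

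Along the arms, with chromosome ends and wild-type H3K9me2 domains left out, the same rule found 175 gained patches. Of these, 85 held 3 tiles or more, and the medians were 2 tiles and a highest difference of 1.34. Because the rule reads a running median, a patch of 1 tile can hold a tile whose own difference is below 1. The lowest, tile 5469900 on chromosome I, stood at 1.65 in pds5D and 2.76 in wild type, a difference of -1.11. Such patches, from the 138th (0.996) to the 175th (-1.11) by highest difference, are counted in the 175 but do not reach 1 by their own tile. By highest difference the rfc4 patch (3.88) was 4th and the rfc3 patch (3.39) 5th, while by width they were 36th and 21st. The widest were runs of 33 tiles over ebs1, mrpl7, byr2 and mlo3, of 24 tiles over hpm1, arp9, rps1502, SPAC1071.09C, rpp203 and pma1, of 19 tiles over tif213, rpl1102 and pyr1, of 17 tiles over rep2 and mrpl35, and 2 runs of 16 tiles, over SPCC1795.12C and sum3 and over osh2, rpl1701 and ebs1. Several of these runs lie near left-out domains. The run of 24 tiles starts at 3861300 on chromosome I, where a domain ends at 3842200. The runs of 33 and 17 tiles and 1 of 16 lie between 1719000 and 1746300 on chromosome II, where a domain ends at 1687900. Narrower patches also lie near such domains, so the ranks by width are not set among separate, isolated patches only. Among the 5 patches with a tile at 3 or more, those at rfc4 and rfc3 ranked 4th and 3rd by width.

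Besides them, 3 patches had a tile at 3 or more. The run of 24 tiles over SPAC1071.09C and its neighbours reached 4.51, and a patch of 4 tiles at hel2 (1838100 to 1839000 on chromosome III) reached 4.10. The hel2 patch averaged 3.43 in pds5D and -0.31 in wild type and had steps of 3.47 and 2.79 at its edges. The third covered pds5 itself (12 tiles, highest 4.02), whose DNA is missing from the pds5D strain, so its ratio there is residual signal over residual signal. Only 22 of 36678 arm tiles (0.06%) reached 3.

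**Figure D3:**
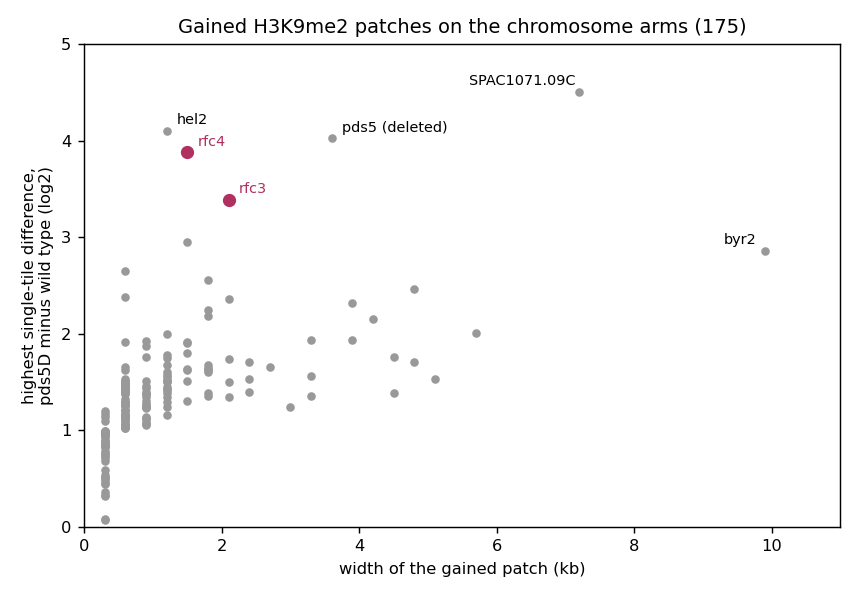
Highest single-tile difference of H3K9me2, pds5D minus wild type on the log2 scale, against the width in kb of each of the 175 gained patches on the chromosome arms (points). The patches at rfc4 (1.5 kb, 3.88) and rfc3 (2.1 kb, 3.39) are marked, and labels name the other 3 that reach 3 and the widest, over byr2. The vertical axis shows no negative values, so patches whose highest difference is negative are not drawn.

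The H3K9me2 difference was next set beside the rest of the clamp loader family. The list, put together with earlier results of these data known, holds the other subunits of replication factor C (rfc1, rfc2 and rfc5), the subunits of the alternative loaders (ctf18, ctf8 and dcc1 of one, elg1, rad17), PCNA itself (pcn1) and the checkpoint clamp (rad9, rad1 and hus1). Of 14 genes with rfc4 and rfc3, 13 were measured and ctf8 had too few tiles. Apart from rfc4 and rfc3, 0 of 11 met the size rule, beside 2.01% of all genes, with a median difference of -0.01 and a range from -0.53 at dcc1 to 0.51 at rfc5. rfc5 had the highest level of the 11 in both genotypes, 1.54 in pds5D and 1.03 in wild type. rfc1, the large subunit, stood at -0.01 in pds5D and -0.31 in wild type, rfc2 at -0.37 in pds5D and -0.36 in wild type, and pcn1 at 0.27 in pds5D and 0.43 in wild type.

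**Figure D4:**
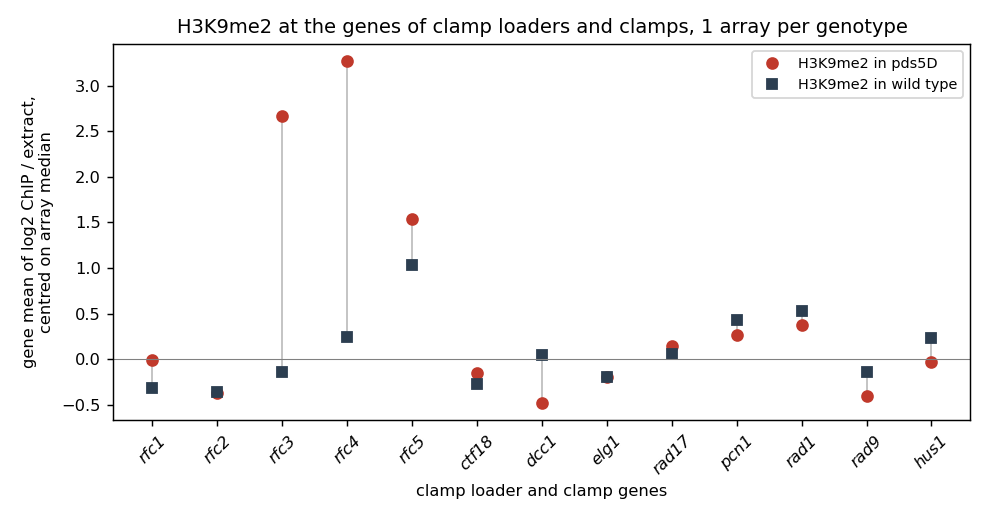
Mean centred log2 ratio of H3K9me2 over the tiles of each measured clamp loader and clamp gene, in pds5D (red circles) and wild type (dark blue squares), 1 array each. Only rfc3 and rfc4 among these 13 genes part by more than 1, at 2.66 in pds5D and -0.14 in wild type for rfc3 and at 3.27 in pds5D and 0.24 in wild type for rfc4.

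Of 36 other DNA replication genes (MCM helicase, GINS, polymerases, origin recognition complex and single-strand binding protein), 31 were measured. Of these, 0 met the size rule in either direction, beside 2.01% higher and 0.24% lower among all genes. The median difference was -0.09. The nearest were psf3, a GINS subunit, with 0.75 in pds5D and -0.42 in wild type, and cdc18, the CDC6 homologue that licenses origins, with 1.41 in pds5D and 0.49 in wild type; both were singled out after their values were seen. Of 11 cohesin genes, 1 met the size rule, beside the same shares of all genes. It was the deleted pds5 itself, and the median difference of the list was -0.08.

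Pds5-GFP was not used in choosing the genes. Wild-type levels of the protein differed between the 2 loci. At rfc4 the gene mean was -0.66 in swi6D, -0.77 in clr4D, and -0.55 and -0.77 in wild type (mean -0.66 ± 0.16, SD, n = 2). All 4 arrays lay below their median, with the swi6D array between the wild-type pair and the clr4D array at its lower end. Across the whole rfc4 window 0 tiles reached 1 on any array, and the highest tile was 0.17 in swi6D, 0.21 in clr4D, and 0.16 and 0.13 in wild type.

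At rfc3 the gene mean was 1.80 in swi6D, 1.69 in clr4D, and 1.33 and 1.52 in wild type (mean 1.42 ± 0.13, SD, n = 2). All 4 arrays lay well above their median. Both mutant arrays lay above both wild-type arrays, an order that with 1 array per mutant carries no test. rfc3 lay within a broad Pds5-GFP peak, an unbroken run of tiles above 1 that held 15 tiles in swi6D, 19 in clr4D, and 15 and 14 in wild type. Outside the run, 3 tiles of the window exceeded 1 in swi6D, 1 in clr4D, and 0 and 2 in wild type. The highest tile of the window was 4030200 in swi6D (2.07) and in clr4D (1.85), and 4031100 in both wild-type arrays (1.75 and 1.68). The peak reached past both ends of the H3K9me2 patch: tile 4029600 stood at 1.93 in swi6D, 1.71 in clr4D, and 1.40 and 1.39 in wild type, and tile 4032000 at 1.65 in swi6D, 1.69 in clr4D, and 1.45 and 1.60 in wild type.

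**Figure D5:**
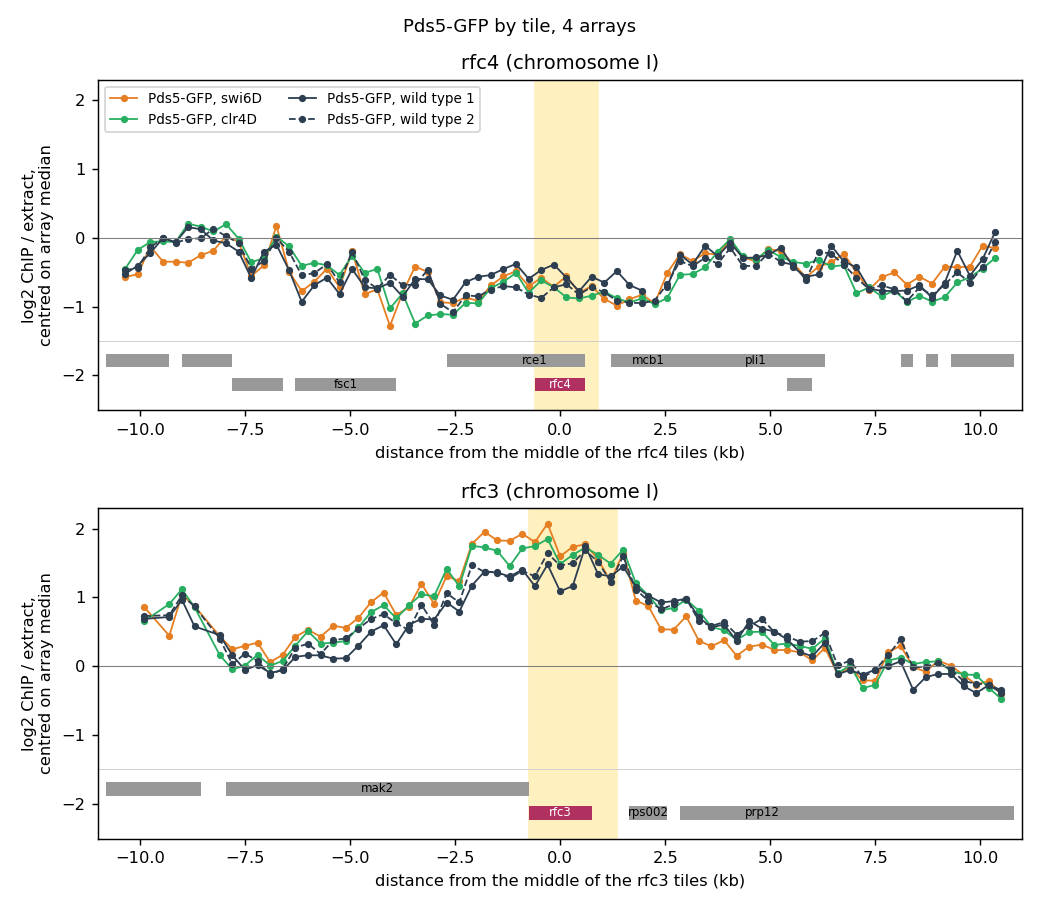
Centred log2 ratio of Pds5-GFP ChIP over extract by tile in swi6D (orange), clr4D (green) and the 2 wild-type arrays (dark blue, solid and dashed) against the distance in kb from the middle of the rfc4 tiles (upper) and the rfc3 tiles (lower). Shading marks the H3K9me2 patch of pds5D; rfc4 lies below 0 on all 4 arrays, with means from -0.77 to -0.55, and rfc3 lies on a broad peak, with means from 1.33 to 1.80.

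The differences were tested with limma over all 4580 genes, with Benjamini-Hochberg adjustment. The spread came from the wild-type pair alone (1 residual degree of freedom), and the fit gave all genes the same standard error of 0.10. Each p-value therefore rests on a spread pooled over all genes, not on the pair of values of that gene. In swi6D 34 genes were higher (0.742%) and 151 lower (3.30%) at an adjusted p below 0.05, and in clr4D 70 were higher (1.53%) and 115 lower (2.51%). At an unadjusted p below 0.05 there were 637 genes in swi6D (13.9%) and 645 in clr4D (14.1%), the shares against which the unadjusted counts of each gene group below are read. Both mutants share the wild-type pair. The clr4D array lies on a slide of its own, so slide and genotype cannot be told apart there.

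At rfc4 the swi6D array equalled the wild-type mean to 2 decimals (limma, adjusted p = 0.99998), and the clr4D difference of -0.11 did not pass (limma, adjusted p = 0.71). At rfc3 Pds5-GFP was higher in swi6D by 0.37 (SE 0.10, limma, adjusted p = 0.015). This call was lost with loess normalisation (0.36, limma, adjusted p = 0.098) and in the ChIP channel alone (0.19, limma, adjusted p = 0.99), and normexp background correction turned its direction (-0.40, limma, adjusted p = 0.039). With wild-type replicate 2, which shares its slide, as the lone control the difference was 0.28, and with replicate 1 it was 0.47, with no test. In clr4D the rfc3 difference was 0.26 and did not pass (limma, adjusted p = 0.17), though it did with the median over tiles (0.39, limma, adjusted p = 0.023).

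Among the 7 genes of the rfc3 window, mak2 and rfc3 were higher in swi6D by limma (4 of 7 at an unadjusted p below 0.05), and 0 were called in clr4D (2 of 7 at an unadjusted p below 0.05). mak2 stood at 0.91 in swi6D, against 0.53 and 0.63 in wild type (difference 0.33, limma, adjusted p = 0.040). Its call was lost or turned under 6 of 9 other settings. Among all genes 0.742% were called higher in swi6D. The last tile of mak2 (4029600) neighbours the first tile of rfc3 (4029900) in the same Pds5-GFP run, so the calls of mak2 and rfc3 are not separate results. Of the 4 genes at that unadjusted level in swi6D, mak2 and rfc3 were higher, while rps002 (-0.21) and prp12 (-0.22) were lower. Of the 2 in clr4D, rfc3 was higher (0.26) and pms1 lower (-0.22). Of the 10 genes of the rfc4 window limma called 0 in either mutant (1 at an unadjusted p below 0.05 in swi6D, near the 13.9% of all genes, and 0 in clr4D). Among the 13 clamp loader and clamp genes the swi6D call at rfc3 was the only one by limma, and rfc3 was also the only gene of the list at an unadjusted p below 0.05 in either mutant. Of the 11 cohesin genes limma called 0 (1 at an unadjusted p below 0.05 in swi6D, also near that share, and 0 in clr4D).

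Of the 31 DNA replication genes limma called 1 in swi6D, lower, beside 3.30% of all genes, and 2 in clr4D, both higher, beside 1.53%. At an unadjusted p below 0.05 there were 5 in swi6D and 6 in clr4D. The gene called in swi6D was ssb1, the large subunit of the single-strand binding protein RPA, at 0.08 in swi6D, against 0.41 and 0.41 in wild type (limma, adjusted p = 0.046). orc2, a subunit of the origin recognition complex, was higher in clr4D at 0.48, against 0.08 and 0.11 in wild type (limma, adjusted p = 0.0087). spp2, a subunit of DNA primase, was also higher in clr4D at 1.63, against 0.87 and 1.21 in wild type (limma, adjusted p = 2.2e-06). The wild-type pair of spp2 had an SD of 0.24, but its call used the standard error shared by all genes. The orc2 and spp2 calls were lost in the ChIP channel alone, and the ssb1 call under 6 of 9 other settings.

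Finally, the genes whose 6 array values lay nearest to those of each gene were listed by Euclidean distance between gene means. The 6 include the 2 H3K9me2 arrays by which rfc4 and rfc3 were chosen, so likeness in those values is built in. Nearest to rfc4 was rce1, at a distance of 1.18 and with shared tiles, followed by pfl8 (1.56), SPBC8E4.04 (1.74), pex32 (1.74) and ufe1 (1.79). pfl8 stood at 3.45 in pds5D and 1.25 in wild type for H3K9me2. The others were further from rfc4 in this mark. SPBC8E4.04 stood at 1.68 in pds5D and 0.67 in wild type, pex32 at 2.06 in pds5D and 1.41 in wild type. ufe1 stood at 1.80 in pds5D and 0.95 in wild type. The differences of pex32 (0.66) and ufe1 (0.85) were below the size rule. Nearest to rfc3 were mrpl7 (1.01), pgt1 (1.21), byr2 (1.41), get1 (1.43) and clr5 (1.53). mrpl7 and byr2 lie side by side in the widest gained patch. Their H3K9me2 was 2.79 and 3.27 in pds5D, against 0.47 and 0.74 in wild type, and their Pds5-GFP lay between 0.92 and 1.35 on the 4 arrays. The H3K9me2 differences of pgt1 (1.36), get1 (1.23) and clr5 (1.06) were smaller than that of rfc3 (2.80).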

How the data were processed

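The 6 tiling arrays hold 60-mer probes, with 41551 spots that are not controls. Per the file headers, the deposited intensity columns are signals of Agilent Feature Extraction 12.0.3.1, which subtracted background and normalised the dyes by linear factors. Its log10 ratio of Cy5 over Cy3, deposited in the same files, was used to check the deposited table of log2 ratios, which differed by more than 0.01 at 1 to 8 of 41251 positions per array and is not centred (medians -0.209 to -0.0544).

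Here log2 of Cy5 over Cy3 processed signal was centred on each array's median, with no loess. Outlier spots were left out and dim ones kept. Tile values were averaged over genes with at least 3 tiles. Genes of ASM294v3 were laid on the tiles by the shift, on a 50 bp grid, at which extract signal best followed GC content over 300 bp. At the shift used, the correlation over tiles was 0.45 around rfc4 and 0.37 around rfc3, and both genes fell on the tiles listed for them in the report. Arm patches leave out 100 kb at each chromosome end and wild-type domains (running median over 21 tiles of at least 2, with 10 kb added).

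Pds5-GFP was fitted with limma 3.58.1 in R 4.3.3 over 3 groups, with Benjamini-Hochberg adjustment at 0.05. The fit was also run on simulated data, and nothing above is read from that run. The H3K9me2 arrays share slide 1, the swi6D array and wild-type replicate 2 share slide 3, and the others have a slide each. Array number, 6, limits the precision. The genes named are rfc4 and rfc3, all genes in their windows, the clamp list, replication and cohesin genes that met a rule, the 5 nearest genes to each and the 5 widest patches, with hel2, psf3 and cdc18 added after their values were seen. Members and lists were chosen with earlier results of these data known. The alternatives covered normalisation, background, channel, outliers, value table, gene summary and extent, thresholds, smoothing and replicates.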

Additional observations from a re-analysis of the deposited data

How the results depend on the processing

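The H3K9me2 differences at rfc4 and rfc3 stayed between 2.52 and 3.15 and between 2.53 and 3.09 over the 8 other settings, and by highest difference both patches ranked from 3rd to 5th among arm patches under the 6 settings compared. The rfc3 patch kept its 7 tiles in all 9 settings; the rfc4 patch held 8 tiles at a threshold of 0.5 (4 at a threshold of 2). Arm patches numbered 175 as reported, 952 at a threshold of 0.5, 10 at 2 and 96 in the ChIP channel alone. The Pds5-GFP difference at rfc3 in swi6D was 0.36 with loess (limma, adjusted p = 0.098), 0.19 in the ChIP channel alone (limma, adjusted p = 0.99) and -0.40 with normexp (limma, adjusted p = 0.039), which also moved the median difference of all genes to -0.23; the cause was not tested. With normexp the mak2 difference in swi6D was -0.12 (limma, adjusted p = 0.53). The rfc3 difference in clr4D was 0.39 with the median over tiles (limma, adjusted p = 0.023). Leaving out each wild-type replicate in turn gave 0.28 to 0.47 at rfc3 in swi6D, 0.17 to 0.36 at rfc3 in clr4D, -0.11 to 0.11 at rfc4 in swi6D and -0.22 to 0.0015 at rfc4 in clr4D, with no test. Over the settings, genes called higher in swi6D ranged from 6 (loess) to 344 (normexp) beside 34, lower from 46 (ChIP channel alone) to 1336 (normexp) beside 151, higher in clr4D from 13 (normexp) to 87 (moderated test with trend) beside 70, and lower from 45 (normexp) to 144 (500 bp added) beside 115.

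No paired analysis was possible because only the wild-type Pds5-GFP group has more than 1 array. With 1 H3K9me2 array per genotype, the patches have no replicate check. Arrays from a strain without the GFP tag, or of total histone H3, were not analysed here, and ChIP without a histone H3 value cannot tell more methylation from more nucleosomes. The position of each patch edge is limited by the 300 bp spacing and by fragments of 500 to 1000 bp.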
